A study of Mus musculus with 2 samples.

Results

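Replication-dependent histone genes encode the bulk of the histones that package DNA newly made in S phase. They are short, mostly lack introns, lie in a few clusters, and end in a stem-loop instead of a poly(A) tail. H3.2, the core histone named in the title of the series, is made from 8 of them by the synonyms in the gene table. The mouse genes with current symbols H1f1 to H1f6, or starting with H2ac, H2bc, H3c or H4c and a number, were taken from the RefSeq gene table of build GRCm38.p6. Of 20665 autosomal protein-coding genes, 63 matched. They comprised 6 H1 (linker histone), 17 H2A, 16 H2B, 12 H3 and 12 H4 genes. Their median annotated length was 492 bp (375 to 37455), and 58 were no longer than 1000 bp.

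The data came from ChIP-seq with an antibody against GFP on frozen heads of mouse embryos at E10.5, with 2 libraries that carry the same labels. The labels give no genotype, strain, sex or litter, do not say which protein carried GFP, and name neither library as a control. They do not say that the libraries came from separate embryos. Each library has its own deposited MACS2 peak list, in which each peak has a summit, a fold enrichment over background and a −log10 q-value. The lists differed widely, with 584724 peaks in library 1 and 348 in library 2, and all results on density rest on library 1. Peak lists hold no expression values, so the tissue could not be checked against marker genes. No contrast between conditions exists here, no test was made, and intervals are 95% intervals for counting error only.

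Few histone genes had a library 1 peak. A summit lay in the body or within 1 kb of 11 of the 63 genes (17.5%, 9.05 to 29.1), whereas 90.0% of all autosomal protein-coding genes met the same criterion. Gene length enters this figure. The share was 86.0% among autosomal genes no longer than the longest histone gene and 34.5% among those of up to 1000 bp, where 8 of 58 histone genes (13.8%, 6.15 to 25.4) had a peak. With −log10 q of at least 5, the number was 5 of 63 histone genes, against 78.9% of all genes. Among the 11 genes, the summit nearest to the gene lay at most 473 bp outside it, and the closest of the genes without a peak, H4c3, lay 1706 bp from a summit.

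In library 2 no histone gene met the criterion (0 of 63, exact upper limit 5.69%). The share among all autosomal protein-coding genes was 0.15%, so a count of 0 is uninformative about these genes. Library 2 held 2 summits on chromosome 3 and 3 on chromosome 13, and the closest lay 29.0 Mb from any histone gene.

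The 63 genes formed 3 clusters when genes up to 500 kb apart were joined. The chromosome 3 cluster (chr3:96219885-96270192) held 10 genes, the first chromosome 13 cluster (chr13:21715711-22043658) held 22, and the second (chr13:23531044-23934913) held 31. Peaks were present at 0 of 10 genes (0 to 30.8%), 5 of 22 (22.7%, 7.82 to 45.4) and 6 of 31 (19.4%, 7.45 to 37.5). The intervals overlap.

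By histone class, H2B genes, whose product pairs with H2A in the nucleosome, had a peak in 5 of 16 cases (31.2%, 11.0 to 58.7). H2A genes had one in 3 of 17 (17.6%, 3.8 to 43.4). Linker histone H1 genes had one in 1 of 6 (16.7%, 0.421 to 64.1). The count was 1 of 12 (8.33%, 0.211 to 38.5) for H3 and likewise 1 of 12 for H4, the pair that forms the core tetramer. These intervals overlap too. Of the 5 H2B genes, 3 are annotated over more than 1000 bp, and 3 share their peaks with an adjacent H2A gene.

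**Figure D1:**
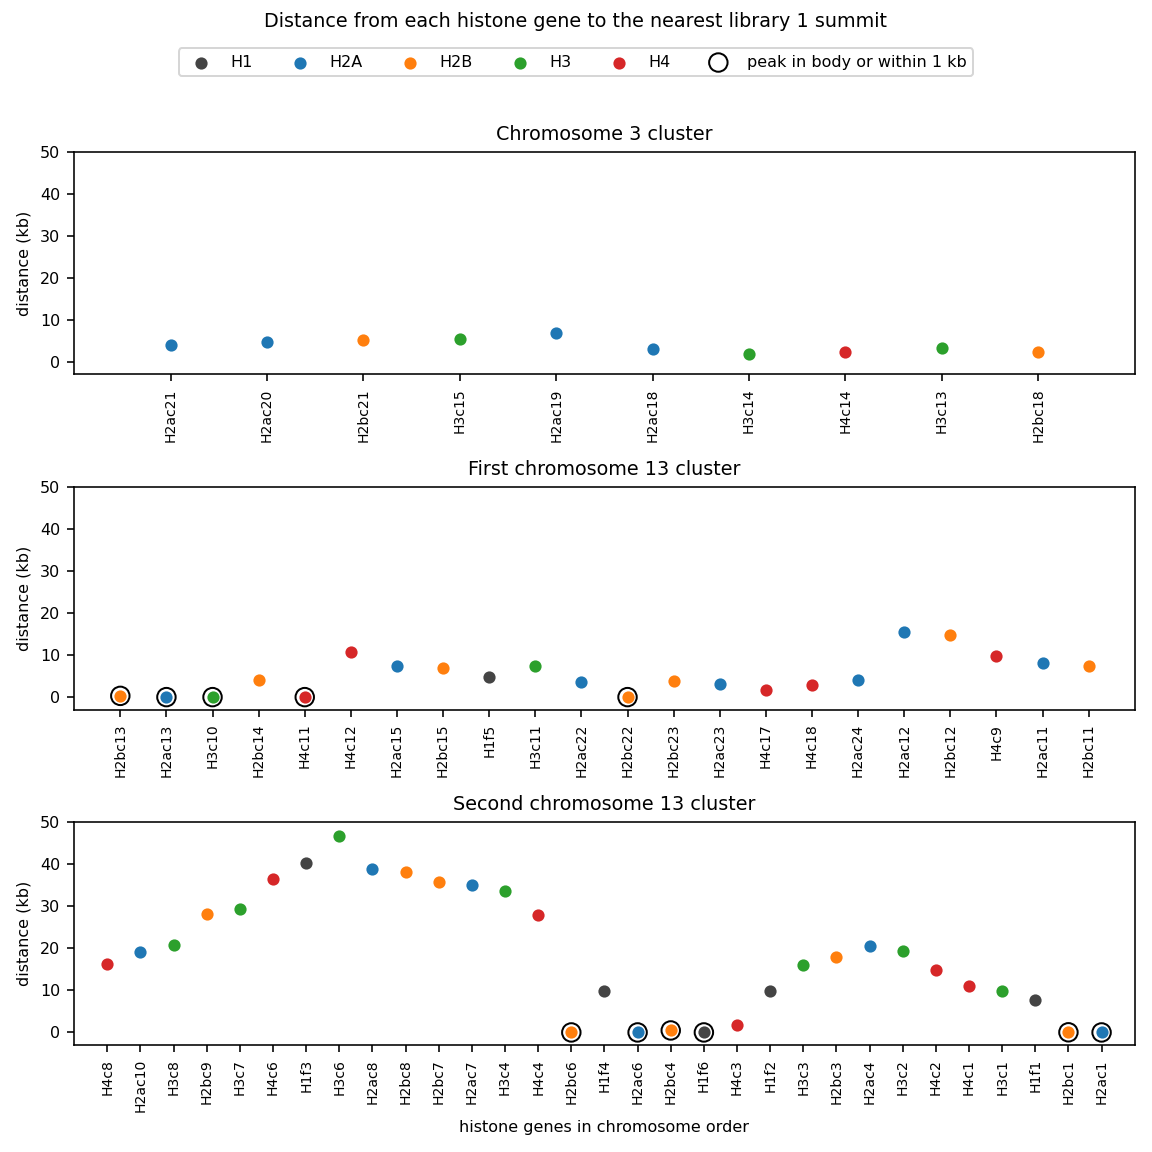
Distance in kb (vertical axis) from each of the 63 histone genes, in chromosome order, to the nearest library 1 summit; 0 means a summit in the gene body. Colours give the histone class and black rings mark the 11 genes with a summit in the body or within 1 kb. No gene of the chromosome 3 cluster is ringed, and the largest distances, up to 46.8 kb, lie in the second chromosome 13 cluster.

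In all, 12 peaks accounted for the 11 genes, because 6 genes shared a peak with a neighbour. Their median fold was 3.63 (2.52 to 5.66), against 3.90 in the whole list, and 5 of the 12 exceeded that list median. MACS2 fold and p together give the number of extended reads at the summit, which ranged from 10 to 20 (median 12.5) over a background of 2.71 to 3.36 reads. The background was 2.71 for 9 of the 12 peaks, so among these the fold varies only with the reads at the summit. The folds are the authors' own and serve only to rank peaks within this list.

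The highest fold belonged to the divergent pair H2ac1 and H2bc1 at the far end of the second chromosome 13 cluster. These genes encode TH2A and TH2B, variants known from male germ cells. A peak inside H2ac1, at chr13:23934508-23934841, had a fold of 5.66 from 20 reads (12.2 to 30.9), higher than 92.6% of the list. Its summit lay 252 bp after the annotated start of H2ac1. A peak at chr13:23933581-23934004 ran over part of H2bc1, with its summit 31 bp beyond that gene. It had a fold of 4.31 from 15 reads (8.4 to 24.7).

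H1f6, which encodes the testis linker histone H1t, held a pair of peaks in its body. The peak at chr13:23696274-23696446 had a fold of 5.0 from 18 reads (10.7 to 28.4), with the summit 567 bp after the start. The peak at chr13:23695956-23696136 had a fold of 3.23 from 11 reads (5.49 to 19.7), with the summit 244 bp after the start. The 3 germ cell genes H2ac1, H2bc1 and H1f6 each had at least 2 summits and a peak with −log10 q of at least 5. H2ac1 and H2bc1 counted the same pair of peaks, so these genes stand for 2 places in the genome. Among the other 60 histone genes, 8 had a peak, 2 had at least 2 summits and 2 had a peak that strong. This grouping was made after the values were seen and was not tested.

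The 5 histone genes annotated over more than 1000 bp are all H2B genes, and 2 of them, H2bc6 and H2bc22, carried peaks far from their start sites. Of the others, H2bc21 and H2bc23 had no peak, and H2bc4 had only a peak shared with H2ac6, 473 bp outside its body. H2bc6 spans 37455 bp and has 2 annotated starts. Its peaks lay between them, at chr13:23609963-23610155 (fold 5.12, 18 reads, 10.7 to 28.4) and chr13:23611766-23611898 (fold 2.98, 12 reads, 6.20 to 21.0), which is 11073 and 9259 bp downstream of the outer start. H2bc22 spans 14079 bp. Its peak at chr13:21790798-21790982 (fold 3.50, 12 reads, 6.20 to 21.0) lay 3406 bp after the start, and that at chr13:21801586-21801715 (fold 4.85, 17 reads, 9.90 to 27.2) had its summit 61 bp beyond the gene. None of these 4 summits lay within 1 kb of an annotated start of its own gene.

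The remaining peaks had folds below the list median. In the first chromosome 13 cluster, H4c11 had a fold of 3.77 at chr13:21735051-21735382, from 13 reads (6.92 to 22.2). H3c10, an H3.1 gene, had a fold of 2.52 at chr13:21717871-21718034, from 10 reads (4.80 to 18.4) over a background of 3.36, higher than 3.46% of the list. A single peak at chr13:21716467-21716585 served H2ac13 and H2bc13, with a fold of 2.96 from 10 reads. It lay 69 bp after the start of H2ac13 and 298 bp before that of H2bc13. In the second chromosome 13 cluster, H2ac6 and H2bc4 shared a peak at chr13:23683589-23683827, also with a fold of 2.96 from 10 reads, 233 bp after the start of H2ac6.

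**Figure D2:**
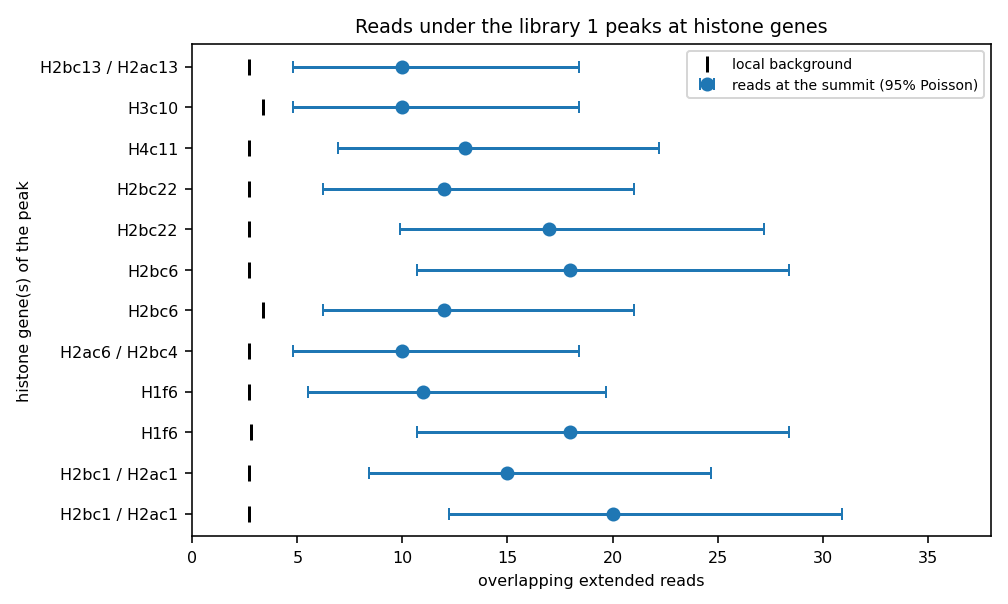
Extended reads overlapping at the summit (horizontal axis, points with 95% Poisson intervals) for the 12 library 1 peaks at histone genes, in chromosome order from top to bottom. Black ticks give the background. Summits rest on 10 to 20 reads over a background of 2.71 to 3.36, which is 2.71 for 9 of the peaks. All 12 intervals overlap one another.

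The 8 H3.2 genes were without a peak in either library. In library 1, 0 of 8 has an exact upper limit of 36.9%, which takes in the 34.5% of all autosomal genes of up to 1000 bp. Their nearest library 1 summits lay at very different distances. On chromosome 3 the distances were 1808 bp for H3c14, 3385 bp for H3c13 and 5501 bp for H3c15. On chromosome 13 they were 16154 bp for H3c3, 19362 bp for H3c2, 29349 bp for H3c7, 33755 bp for H3c4 and 46772 bp for H3c6. The 4 H3.1 genes, which encode the other replication-dependent H3 protein, had summits at 0 bp for H3c10, 7497 bp for H3c11, 9816 bp for H3c1 and 20715 bp for H3c8. The ranges of the H3.2 and H3.1 genes overlap.

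Across all histone genes, 23 of 63 lay more than 10 kb from any library 1 summit, of which 20 were in the second and 3 in the first chromosome 13 cluster. Among all autosomal protein-coding genes the share was 3.01%, and among those of up to 1000 bp it was 19.9%. H3c6 was farthest at 46772 bp. It was followed by the linker histone gene H1f3 at 40329 bp and by H2ac8 at 38801 bp.

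These distances trace a long stretch without summits. Between summits at positions 23514703 and 23610021 of chromosome 13, 95.3 kb held no summit. Wholly inside it lay 14 histone genes, from H4c8 to H4c4 (1 H1, 3 H2A, 3 H2B, 4 H3 and 3 H4 genes). H2bc6 lies partly inside, and the summit at 23610021 belongs to an H2bc6 peak. The median interval between neighbouring autosomal summits was 1.66 kb. Of 576656 such intervals, 225 (0.0390%) were at least as long, and together they covered 1.14% of the autosomal span. Assembly gaps were not removed from these counts. A second stretch of 43.3 kb in the same cluster held 9 genes from H1f2 to H1f1. At least as long were 3771 intervals (0.654%), which covered 9.57% of the autosomal span. In the first cluster a stretch of 39.8 kb held the 5 genes from H2ac12 to H2bc11. That length was reached by 4770 intervals (0.827%), which covered 11.3% of the autosomal span. On chromosome 3 the longest stretch was 16.2 kb with 4 genes, a length reached by 29833 intervals (5.17%). These covered 36.4% of the autosomal span, so stretches of that length are common.

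Peak density in each cluster was also set against its surroundings. The second chromosome 13 cluster held 36 summits, or 89.1 per Mb (62.4 to 123), against 154 (122 to 192) in the 500 kb before it, 220.0 (181 to 265) in the 500 kb after it and 205 on the whole chromosome. Its interval meets only that of the 500 kb before. The chromosome 3 cluster held 5 summits, or 99.4 per Mb (32.3 to 232), against 350.0 (300.0 to 406) before it and 330.0 (282 to 384) after it, although chromosome 3 as a whole held 169 per Mb. The first chromosome 13 cluster held 41 summits, or 125 per Mb (89.7 to 170.0), against 160.0 (127 to 199) before and 140.0 (109 to 177) after. Here the cluster and both neighbours overlap. Joining genes only up to 100 kb divided both chromosome 13 clusters. In the first, the 17 genes from H2bc13 to H2ac24 then lay in 118 kb with 178 summits per Mb (110.0 to 273), and the 5 genes from H2ac12 to H2bc11 lay in 8.54 kb with none. In the second, the 29 genes from H4c8 to H1f1 lay in 233 kb with 90.0 per Mb (55.7 to 138), and H2bc1 and H2ac1 lay in 1.19 kb with 1 summit, or 841 per Mb (21.3 to 4690). All autosomes together held 240.0 per Mb.

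In fixed bins of 25 kb, 4 of 18 bins with a histone gene held no summit, against 8.71% of all autosomal bins. Those 18 bins had a median of 2.5 summits (highest 9), and all autosomal bins had a median of 4. The empty bins numbered 3 of 8 in the second chromosome 13 cluster, 1 of 7 in the first and 0 of 3 on chromosome 3. The 3 adjoin one another inside the 95.3 kb stretch, and the 1 lies inside the 39.8 kb stretch. They therefore describe those stretches again, and no interval was computed for these shares.

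**Figure D3:**
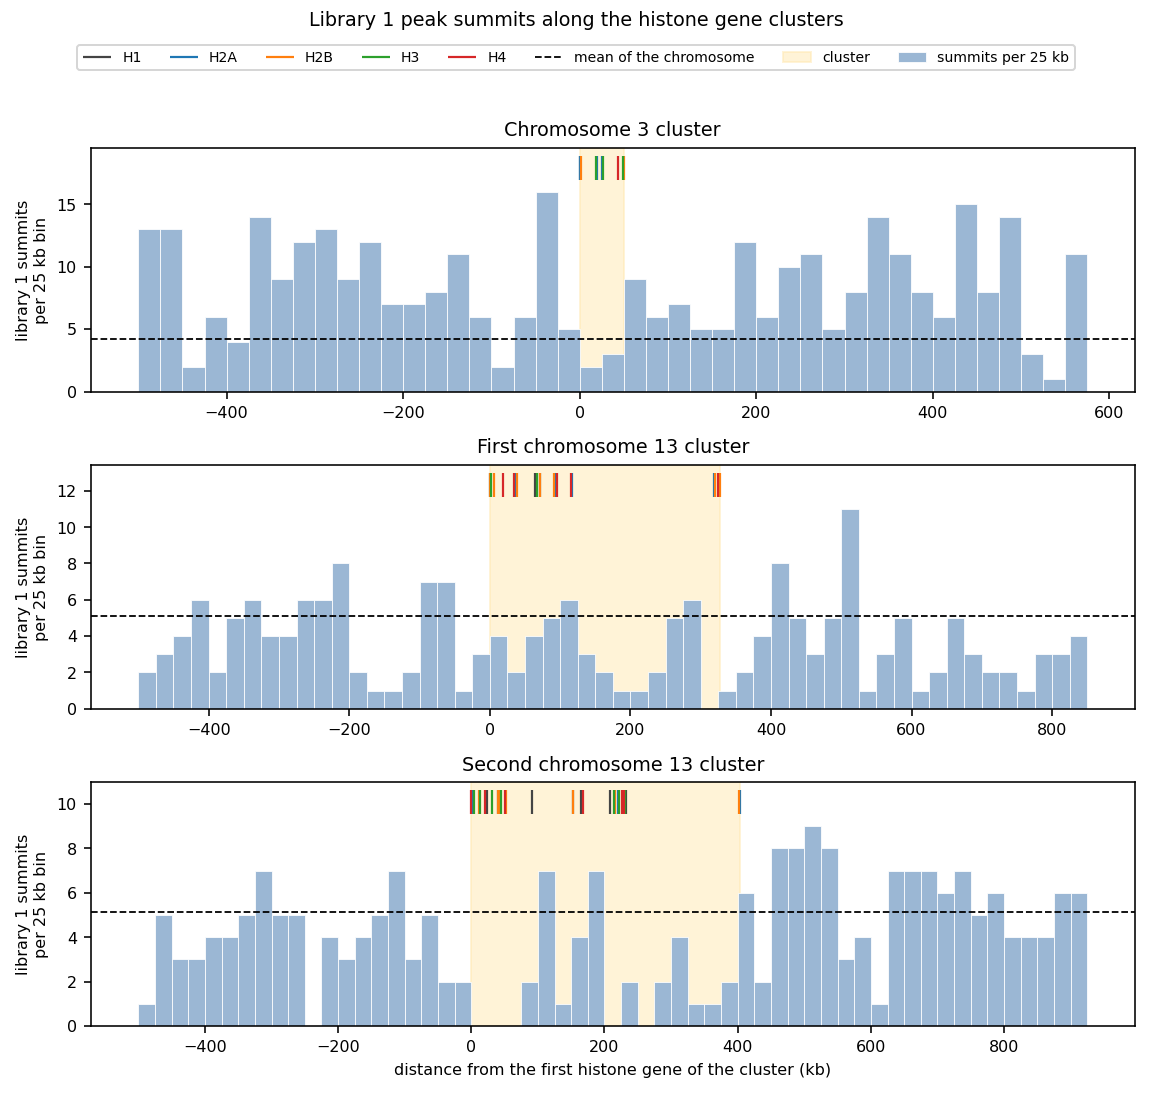
Library 1 summits per 25 kb bin (bars) along each histone gene cluster (shaded) and at least 500 kb on each side, by distance in kb from the first histone gene; coloured ticks mark histone genes by class and the dashed line is the mean of the chromosome. Bars were 2 and 3 at the first bins of the chromosome 3 cluster, and bins at -450 and -100 kb, without a histone gene, also held 2. In the second chromosome 13 cluster, bins at 0, 25, 50 and 200 kb held no summit and 7, 6, 2 and 5 histone genes. Bins at -250 and 250 kb of that panel held neither a summit nor a histone gene.

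Summit density was also taken separately inside and beside the short histone genes. The bodies of the 58 histone genes of up to 1000 bp held 7 summits in 30.42 kb, or 230.0 per Mb (92.5 to 474), against 393 (357 to 430) in other autosomal genes of that length. The 1 kb outside these bodies held 1 summit in 84.68 kb, or 11.8 per Mb (0.299 to 65.8), against 76.0 (65.9 to 87.3) beside the other short genes. Both sets had fewer summits beside the genes than in them. The body intervals overlap between the sets, and those outside all but touch, with a single summit beside the histone genes. Whether the shortfall differs between bodies and flanks was not tested.

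With distance from the nearest histone gene, density was 103 per Mb (49.6 to 190.0) in the bodies of all 63 genes, which include the long H2B annotations. It was 23.3 (2.82 to 84.2) in the first 1 kb outside, 51.0 (3 summits) at 1 to 2 kb and 114 (57.1 to 205) at 2 to 5 kb. Farther out it was 168 (99.5 to 265) at 5 to 10 kb, 175 (123 to 242) at 10 to 25 kb, 161 (116 to 218) at 25 to 50 kb, 179 (143 to 222) at 50 to 100 kb, 226 (190.0 to 267) at 100 to 200 kb and 232 (210.0 to 255) at 200 to 500 kb. Chromosome 13, with most of the length, gave 27.1 (3.29 to 98.0) within 1 kb, 150.0 (79.7 to 256) at 5 to 10 kb, 90.1 (54.2 to 141) at 25 to 50 kb and 165 (143 to 190.0) at 200 to 500 kb. Chromosome 3 gave 0 (0 to 306) within 1 kb and 365 (318 to 417) at 200 to 500 kb.

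**Figure D4:**
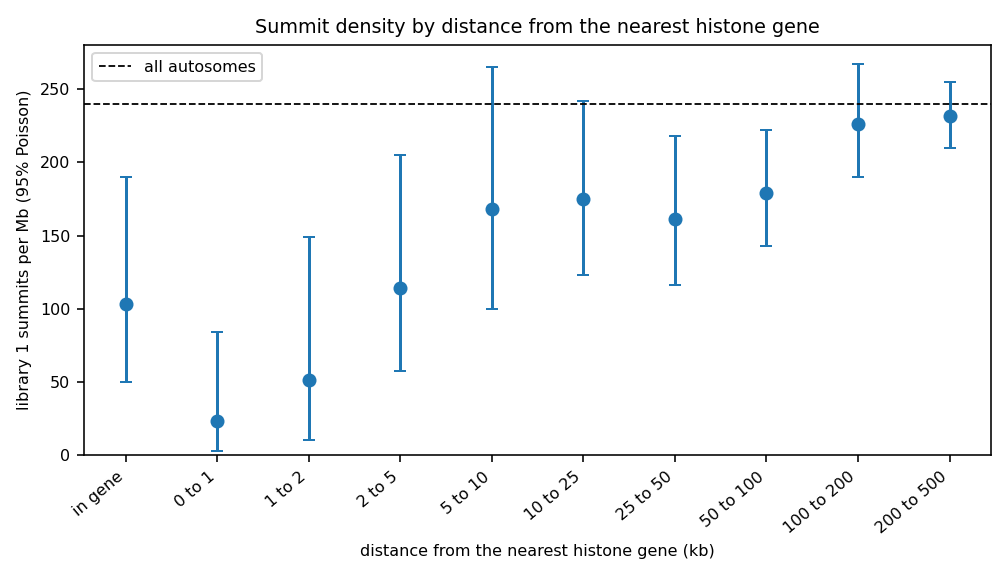
Library 1 summits per Mb (points, 95% Poisson intervals) by distance in kb from the nearest histone gene, over all clusters; the dashed line is the density of all autosomes, 240.0 per Mb. The lowest point, 23.3, lies within 1 kb outside the genes. The point at 200 to 500 kb, 232, pools chromosomes that lie on either side of the line. Chromosome 13 gave 165 (143 to 190.0) at that distance and chromosome 3 gave 365 (318 to 417).

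Other genes share these clusters. Their spans held 10 other protein-coding genes, of which 8 (80.0%) had a library 1 peak by the same criterion, near the 90.0% of all autosomal protein-coding genes. Their median length was 14485 bp. In the second chromosome 13 cluster, Hfe, the haemochromatosis gene, had 4 summits (best fold 6.73). There the phosphate transporter genes Slc17a3 and Slc17a2 had 4 (5.39) and 2 (4.58), and Slc17a1 had none over 28107 bp. The other gene without a peak was H4bc24 in the first cluster. Its older name, Hist1h2br, is that of a histone gene, but its current symbol did not match. It is counted among the other genes here and in the densities below, so these are not all non-histone genes. In the first cluster, the thymic protease gene Prss16 had 4 summits (4.36), Pom121l2 had 3 (5.12) and the zinc finger gene Zfp184 had 2 (3.77). No other protein-coding gene lay in the chromosome 3 cluster. Summit density was 68.0 per Mb (35.1 to 119) over histone genes with 1 kb on each side, 140.0 (85.3 to 216) over the other genes and 108 (80.3 to 143) in the remaining sequence. With histone gene bodies alone, the order of histone genes and remaining sequence turned, at 103 (49.6 to 190.0) and 96.0 (71.7 to 126).

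The promoter table covered 58 of the 63 genes with 59 promoters, each of 250 bases before and 50 after an annotated start. None of the 59 held a library 1 summit, against 22.8% of the promoters of autosomal protein-coding genes. No interval was computed for this count, and the windows of some adjacent H2A and H2B genes overlap. Histone promoters also had a lower median share of G and C bases, given below, and its part was not tested. Only the promoter of H4c11 was touched by a peak. Of 9 H2A and H2B pairs transcribed away from each other, with starts 164 to 281 bp apart (median 180.0), none had a peak touching the sequence between the starts, and 3 had a summit over the pair as a whole. For H2ac1 and H2bc1, the shared promoter therefore lay between the pair of peaks described above.

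These promoters are shown for the pair with the highest fold, for an H3.2 gene without a peak and for the promoter touched by a peak. Sequences are from RefSeq, build GRCm38.p6, 5′ to 3′ on the strand of the gene. H2ac1 lies at chr13:23934187-23934486 on the plus strand, H3c2 at chr13:23752095-23752394 on the plus strand and H4c11 at chr13:21734784-21735083 on the plus strand. Capitals in H2ac1 and H3c2 mark TATAA (bound by TBP, the TATA-binding protein), CCAAT (bound by NF-Y) and ATTTGCAT (the octamer bound by Oct1) on either strand. Capitals in H4c11 mark the bases under the library 1 peak.
H2ac1: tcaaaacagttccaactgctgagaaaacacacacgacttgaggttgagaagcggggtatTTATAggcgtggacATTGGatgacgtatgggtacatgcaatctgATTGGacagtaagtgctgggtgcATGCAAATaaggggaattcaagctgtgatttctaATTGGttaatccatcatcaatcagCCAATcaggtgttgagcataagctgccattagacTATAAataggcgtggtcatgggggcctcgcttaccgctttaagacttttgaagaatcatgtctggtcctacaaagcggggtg
H3c2: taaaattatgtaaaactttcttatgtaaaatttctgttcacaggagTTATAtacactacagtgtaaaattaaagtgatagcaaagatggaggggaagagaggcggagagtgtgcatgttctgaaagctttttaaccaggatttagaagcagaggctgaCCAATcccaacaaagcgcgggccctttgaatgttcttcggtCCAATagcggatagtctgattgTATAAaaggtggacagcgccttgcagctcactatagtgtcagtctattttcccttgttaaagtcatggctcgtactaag
H4c11: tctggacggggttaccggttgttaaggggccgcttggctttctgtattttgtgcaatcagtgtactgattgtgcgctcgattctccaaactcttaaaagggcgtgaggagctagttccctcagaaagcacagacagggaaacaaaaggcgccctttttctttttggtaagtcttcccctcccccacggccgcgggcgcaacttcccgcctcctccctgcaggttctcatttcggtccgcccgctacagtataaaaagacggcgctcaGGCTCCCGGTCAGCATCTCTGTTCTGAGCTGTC

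In H2ac1, a TATAA starts 32 bases before the annotated start and a CCAAT 66 bases before it, with a further TATAA, 3 CCAAT and 1 octamer on the other strand, which is that of H2bc1. In H3c2, a TATAA starts 29 bases before the start and CCAAT 51 and 92 bases before it, with a further TATAA on the other strand. Among the 59 histone promoters, 46 held TATAA (78.0%), against 21.9% of 20085 autosomal protein-coding promoters. CCAAT was present in 51 (86.4%), against 38.1%, and the octamer in 13 (22.0%), against 1.67%. The median share of G and C bases was 45.3% in histone promoters and 57.0% in all promoters. Its part in these motif shares was not tested. All H1, H2A, H2B and H3 promoters held CCAAT, whereas 3 of 11 H4 promoters did. The octamer was found in 7 of 15 H2B and 6 of 17 H2A promoters and in none of the other classes, and adjacent H2A and H2B genes share part of their windows. No motif searched contains another, and a match is a description of letters, not of binding.

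**Figure D5:**
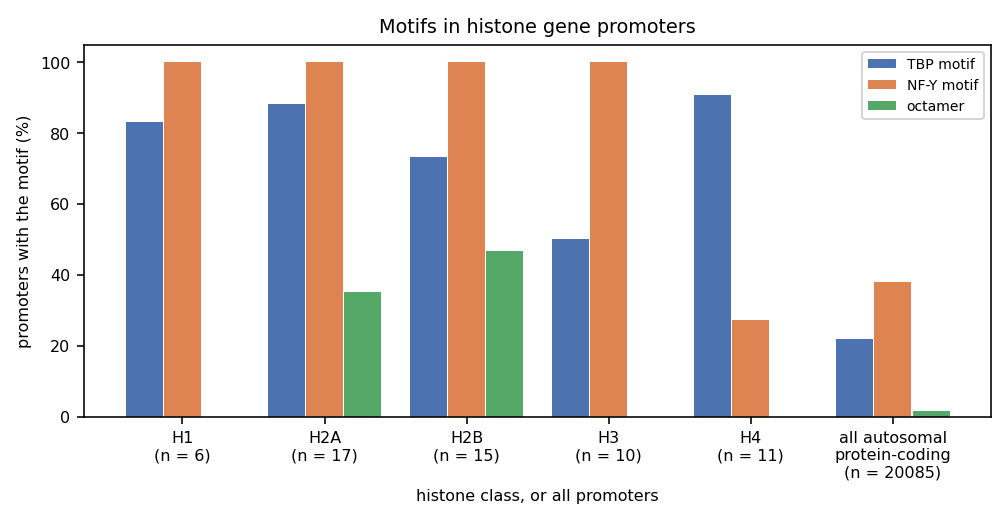
Share of promoters (vertical axis, percent) that hold each motif on either strand, for the 5 histone classes and, at the right, for all 20085 autosomal protein-coding promoters. The NF-Y motif is in every H1, H2A, H2B and H3 promoter and in 27.3% of H4 promoters, and the octamer is in H2A and H2B promoters only among the histone classes.

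Several histone genes have near copies, which bears on how reads can be placed. Runs of 50 bases found at a second place in the promoter table occurred in 11 of 59 histone promoters (18.6%), against 7.50% of autosomal protein-coding promoters. They were in 4 of 8 promoters on chromosome 3, in 7 of 22 in the first and in 0 of 29 in the second chromosome 13 cluster, the cluster with the long stretch without summits. Among all autosomal protein-coding promoters, 10.1% of those with such a run and 23.9% of those without held a summit. No histone promoter held a summit, with or without such a run. By the wider criterion of a summit in the gene body or within 1 kb, the counts were 1 of 11 histone promoters with such a run and 10 of 48 without (20.8%). These counts use another measure and cannot be set against the promoter shares. How the authors treated reads with several matching places is not given in the sources used here, and its part in the counts was not tested. Coding sequences and the sequence between genes were not compared.

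The longest run on the same strand, 285 bases, was shared by the H4 genes H4c17 and H4c18. H2ac18 and H2ac19 shared 219 bases, and H2ac23 and H2ac24 shared 200. Whether reads from one copy were placed at the other cannot be seen in peak lists and was not tested. The lack of a peak at these genes is reported as a count only. The H3.2 genes H3c15 (chr3:96239078-96239377, minus strand) and H3c14 (chr3:96246435-96246734, plus strand) are printed here with their shared run of 231 bases in capitals.
H3c15: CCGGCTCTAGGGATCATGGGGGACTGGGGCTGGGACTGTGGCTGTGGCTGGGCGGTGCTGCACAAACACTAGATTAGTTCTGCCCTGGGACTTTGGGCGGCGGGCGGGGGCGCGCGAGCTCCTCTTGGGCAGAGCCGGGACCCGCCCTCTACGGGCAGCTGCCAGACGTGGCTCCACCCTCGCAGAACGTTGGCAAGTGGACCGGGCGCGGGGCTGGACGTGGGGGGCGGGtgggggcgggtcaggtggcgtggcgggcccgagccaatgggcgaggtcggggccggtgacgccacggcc
H3c14: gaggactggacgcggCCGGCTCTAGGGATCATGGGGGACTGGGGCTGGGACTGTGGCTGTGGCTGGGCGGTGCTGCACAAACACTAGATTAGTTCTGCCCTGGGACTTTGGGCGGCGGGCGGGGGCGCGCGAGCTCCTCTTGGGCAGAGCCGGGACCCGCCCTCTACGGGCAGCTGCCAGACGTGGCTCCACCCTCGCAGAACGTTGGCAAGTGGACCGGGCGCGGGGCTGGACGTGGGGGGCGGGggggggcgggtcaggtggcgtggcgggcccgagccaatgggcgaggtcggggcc

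Genes that act on histone genes or encode other histones were looked up in the same way. All 26 factors of histone gene expression had a library 1 peak by this criterion, as did 90.0% of all autosomal protein-coding genes. Their median best fold was 5.39 and their median length 19534 bp. The highest folds were 8.08 at Ncbp1, a subunit of the nuclear cap-binding complex, and 7.27 at both Tut7, a uridylyltransferase, and Wdr33, a subunit of the polyadenylation machinery. Slbp, whose product binds the histone mRNA stem-loop, had 4 summits (best fold 6.19), and Npat, the cyclin E target at histone genes, had 7 (4.85). Of 17 other histone genes, 15 (88.2%) had a peak, near the same 90.0%. The highest folds were at the macroH2A genes Macroh2a1 (54 summits over 62005 bp, 6.46) and Macroh2a2 (30 summits over 45965 bp, 6.19) and at the oocyte linker histone gene H1f8 (5.12). H4f16, 1641 bp from a summit, and H2aw, 4875 bp from one, had none. They are short, at 439 and 508 bp. H2bu2 (462 bp) and H2al2a (542 bp) are of similar length and had 1 summit each. Of all autosomal protein-coding genes of up to 1000 bp, 34.5% had a peak. The part of gene length was not tested.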

How the data were processed

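Peaks of 2 ChIP-seq libraries (antibody against GFP, heads of mouse embryos at E10.5) were analysed. Tools listed in the submitters' processing notes are MACS2 2.1.0, Bowtie 1.1.2, Trimmomatic 0.33 and bcl2fastq 2.17, with no settings. The builds listed there are mm10 and hg38. Each deposited list gives, per the file headers and the narrowPeak format, a score, a fold enrichment (ratio) at the summit, −log10 p-values and −log10 q-values, all computed by the authors' caller, and the offset of the summit from the peak start. The deposited score was compared with 10 times the q column, rounded down, and matched in all 584724 peaks of library 1 and all 348 of library 2. Peaks were called per library. Read totals are not given, so depth is known only through the peaks.

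Histone genes were matched by current symbol in a RefSeq table of GRCm38.p6 (mm10), which gives no exons. A gene had a peak when a summit lay in its body or within 1 kb. Genes up to 500 kb apart formed a cluster. Densities have exact Poisson intervals and shares Clopper-Pearson intervals (95%). The pileup at a summit was solved from fold and p as a whole number, with a mismatch of at most 9.02e-06 on the −log10 scale. The counting and the pileup solution were tested on simulated data. H3.1 and H3.2 genes were told apart by the synonyms in the gene table, because no protein sequences were used here. Named were all genes with a peak, all H3.2 genes, the 3 genes farthest from a summit, the 3 other genes with most summits in a cluster, and, from the lists of related genes, the 3 highest folds and those without a peak. Slbp, Npat, the H3.1 genes, Slc17a1, H4bc24, H2bu2 and H2al2a were added after their values were seen. Members and lists were chosen with earlier results of these data known. Alternatives changed the window, the q-value threshold, overlap in place of summit, the joining distance, the names and the libraries. Python 3.11.15, pandas 2.3.3 and scipy 1.17.1 were used.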

Additional observations from a re-analysis of the deposited data

How the results depend on the processing

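With 5 kb on each side, 27 histone genes had a library 1 peak in place of 11 (7 on chromosome 3, 13 in the first chromosome 13 cluster; H1 2, H2A 9, H2B 8, H3 3, H4 5), and with gene bodies alone H2B had 2 in place of 5. With −log10 q of at least 5 the count was 5 (1 in the first chromosome 13 cluster; H2A 1, H2B 3, H3 0, H4 0). Among all autosomal protein-coding genes the share at that threshold was 78.9%. Shares of all genes with 5 kb or with bodies alone are not given here. The counts for those windows therefore cannot be set against other genes. Any overlap, the older names and restriction to short genes (added after seeing the data) left the count within 1.5 times. Leaving out each library in turn gave 0 to 11 genes with a peak in either. Density fell, as fewer peaks were counted, to 48.8 and 34.7 per Mb in the first and second chromosome 13 clusters and to 59.6 in the chromosome 3 cluster with that threshold, and to 28.3, 48.9 and 45.4 over histone genes, other genes and the rest. Joining up to 100 kb gave 178 per Mb for the larger part of the first chromosome 13 cluster and 90.0 for that of the second. Counts of 10 to 20 reads per summit limit the ranking of single peaks, and 1 library carries nearly all peaks.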
